A study of Danio rerio with 7 samples.

Results

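Broad H3K4me3 domains, those over 1500 bp wide, numbered 1498 among the 19401 H3K4me3 domains mapped in zebrafish embryos at the bud stage. They were chosen by width alone, counted from the start to the end of each deposited domain with both ends included, on all sequences. Whole wild-type embryos of the Tu strain were assayed by chromatin immunoprecipitation and sequencing (ChIP-seq), with 1 library each for H3K4me3, H3K27ac, Myc-tagged Cdx4 and Myc-tagged Sall4. The 3 input libraries were not analysed here. Each experiment used 500 embryos out of about 2000 staged, so each list averages over all tissues of the embryo. Some embryos had received mRNA at the 1-cell stage and others had not. Wild-type embryos make no Myc-tagged factor, so the titles place the Cdx4 and Sall4 libraries with embryos that had received mRNA. The labels do not state the treatment behind the H3K27ac, H3K4me3 and input libraries. A tagged factor marks where the tagged protein was found, which may differ from the endogenous protein, and 1 anti-Myc antibody served for both factors.

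H3K4me3 is a trimethylated histone found at the starts of active and poised genes. Most promoters carry a narrow block of it, and in other vertebrates unusually broad blocks are known to mark genes tied to cell identity and development. The domains called broad here are set by a limit of 1500 bp, and whether they correspond to those blocks was not tested. H3K27ac is a histone acetylation that marks enhancers and promoters in use. Cdx4 is a caudal-type homeodomain protein that binds DNA and is known for patterning posterior tissues. Sall4 is a spalt-like zinc finger protein known for its role in pluripotent and early embryonic cells. The title of the study places both factors in the step from mesoderm to embryonic blood. How often broad H3K4me3 coincides with acetylation and with either factor is the question addressed here.

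No target had a replicate, so no value carries an error between libraries and no p-value is given. Intervals in parentheses are 95% intervals for counting error: exact (Clopper-Pearson) binomial for shares, exact Poisson for rates and exact conditional binomial for ratios of rates. Neighbouring intervals of 1 list are not independent, so the true uncertainty is larger. The lists held 4599 H3K27ac domains, 5166 Cdx4 peaks and 9747 Sall4 peaks, every peak being 100 bp wide. Depth of sequencing is unknown here, and a missing peak or domain means only that none was called. Positions are those of zebrafish assembly Zv8, named by the prefix of the scaffold names. No gene was assigned to a position and no sequence is shown, since no annotation or genome of that assembly was used here.

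The broad domains made up 7.72% of all H3K4me3 domains and 19.4% of the sequence they cover, 2.91 of 15.0 Mb. Their widths ran from 1520 to 5399 bp, with a median of 1799 bp and quartiles of 1699 and 2099 bp. Only 421 exceeded 2000 bp, 127 exceeded 2500 bp and 28 exceeded 3000 bp. The domains of 1500 bp or less had a median width of 599 bp (quartiles 299 and 999 bp). The number of domains declined without a break across the limit of 1500 bp. Domain edges lay on a grid of 100 bp for most domains, so the nearest common widths were 1599 bp inside the limit, with 295 domains, and 1499 bp outside it, with 439 domains. Just inside, 328 domains over 1500 and up to 1600 bp had a median authors' score of 736, and just outside, 486 domains over 1400 and up to 1500 bp had a median of 684. Overlap with an H3K27ac domain was 14.9% just inside and 14.2% just outside. A Cdx4 peak lay in 6.10% just inside and 6.38% just outside, and a Sall4 peak in 9.15% (6.26 to 12.8%) just inside and 5.14% (3.36 to 7.5%) just outside.

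**Figure D1:**
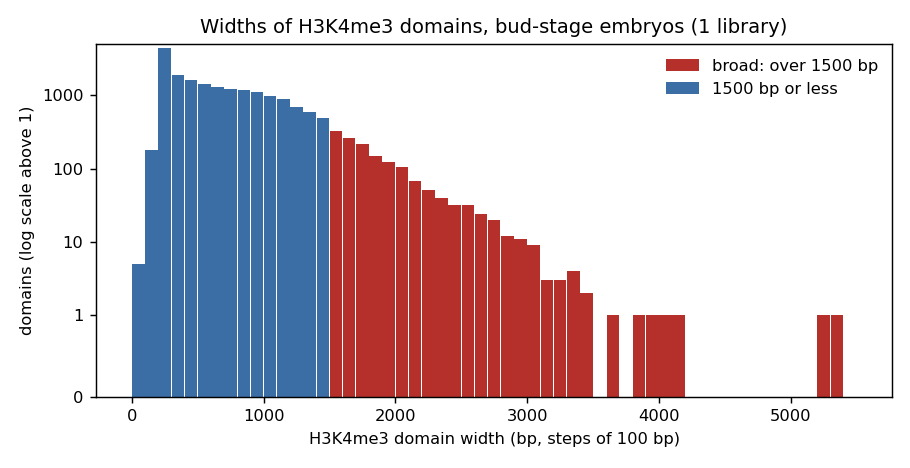
Number of H3K4me3 domains (vertical axis, log scale above 1) by domain width in bp (horizontal axis, bins of 100 bp) in the single H3K4me3 library, with the broad domains in red and those of 1500 bp or less in blue. The counts decline smoothly through the limit, and 28 domains lie beyond 3000 bp.

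The score the authors gave each domain was higher in broad domains, with a median of 861 (quartiles 587 and 1205) against 224 (89 and 460) in the domains of 1500 bp or less. Width chose the members and comes from the same library, so this is a description. Per kb of width the classes were much closer. The median score per kb was 468 in broad domains and 395 in those of 1500 bp or less. In domains over 900 and up to 1500 bp it was 459. The Spearman correlation of score with width was 0.29 across the 1498 broad domains and 0.69 across the 17903 others. Of the broad domains, 120 (8.01%) scored below the median of the whole list. A score of 0 was given to 8 broad domains and to 1120 of the others.

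Broad domains were spread over all 25 assembled chromosomes, with 60 on unplaced scaffolds. Their number per Mb of chromosome ran from 0.727 on chromosome 4 to 1.50 on chromosome 23. As a share of the H3K4me3 domains of a chromosome they ran from 5.99% (4.45 to 7.86%) on chromosome 8 to 10.9% (8.43 to 13.7%) on chromosome 12. Chromosome 7 held the most, 89. Of these 17 overlapped a Cdx4 peak (19.1%, 11.5 to 28.8%), against 8.48% of all broad domains and 2.76% of all H3K4me3 domains. A Sall4 peak lay in 15 of them (16.9%, 9.75 to 26.3%), against 12.2% of all broad domains and 3.59% of all H3K4me3 domains. An H3K27ac domain also overlapped 15 of them (16.9%, 9.75 to 26.3%), against 18.6% of all broad domains and 5.53% of all H3K4me3 domains. The shares over all H3K4me3 domains of chromosome 7 are not given here. Another broad domain lay within 10 kb of 98 broad domains (6.54%, 5.34 to 7.91%), and a broad domain lay within 10 kb of 967 of the other domains (5.40%, 5.07 to 5.74%), with overlapping intervals. For the domains over 900 and up to 1500 bp the share was 4.66% (4.08 to 5.30%), an interval just below that of broad domains. Broad neighbours count each other, so the interval for broad domains is too narrow. This small separation is not read as a difference.

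Of the 3 other lists, H3K27ac overlapped the most broad domains. Its intervals had a median width of 399 bp against 100 bp for the peaks, which makes an overlap more likely. An H3K27ac domain overlapped 279 of the 1498 broad domains by at least 1 bp (18.6%, 16.7 to 20.7%), against 794 of the 17903 other domains (4.44%, 4.14 to 4.75%) and 5.53% of all H3K4me3 domains. More than 1 H3K27ac domain fell in 38 broad domains (2.54%) and in 19 others (0.106%), with 0.294% over all H3K4me3 domains. A wide domain offers a longer target, so the same overlap was counted per Mb of domain. Broad domains held 105.5 H3K27ac domain middles per Mb (94.0 to 118) and the others 56.6 (52.4 to 61.0), a ratio of 1.86 (1.62 to 2.14). The ratio per domain was 4.20. H3K27ac covered 7.43% of the bases of broad domains and 2.58% of the bases of the others.

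The H3K27ac domains found in broad H3K4me3 were wider than those elsewhere. Their median width was 499 bp (quartiles 399 and 899 bp) for the 322 that overlapped a broad domain, against 399 bp for the 804 that overlapped only narrower H3K4me3 domains and 299 bp for the 3473 that overlapped none. A wider H3K27ac domain is more likely to touch an H3K4me3 domain, so sorting by overlap itself favours this order. How much of the order it accounts for was not tested. Of the 322, 275 (85.4%) lay wholly inside their broad domain. Acetylation seldom filled a broad domain. In the 279 broad domains that had any, it covered a median of 29.4% of the width (quartiles 20.0 and 53.7%), or 599 bp, and only 7 were covered from end to end. In the 794 narrower domains with acetylation the median cover was 41.4% of a shorter width, or 299 bp.

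Sall4 peaks lay in 183 broad domains (12.2%, 10.6 to 14.0%), against 514 of the other domains (2.87%, 2.63 to 3.13%) and 3.59% of all H3K4me3 domains. Cdx4 peaks lay in 127 broad domains (8.48%, 7.12 to 10.0%), against 408 others (2.28%, 2.07 to 2.51%) and 2.76% of all. Per Mb of domain, Sall4 peak centres numbered 67.7 (58.6 to 77.8) in broad domains and 37.9 (34.6 to 41.6) in the others, a ratio of 1.78 (1.50 to 2.11). Cdx4 peak centres numbered 49.1 per Mb (41.4 to 57.9) in broad domains and 29.8 (26.8 to 33.0) in the others, a ratio of 1.65 (1.35 to 2.01). Against the next narrower domains alone, those over 900 and up to 1500 bp, the ratios were 1.60 (1.32 to 1.94) for Sall4, 1.36 (1.09 to 1.69) for Cdx4 and 1.53 (1.31 to 1.78) for H3K27ac.

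Most of both factor lists lay elsewhere. Broad domains held 147 of the 5166 Cdx4 peaks (2.85%) and 206 of the 9747 Sall4 peaks (2.11%). Of the 567 Cdx4 peaks in any H3K4me3 domain, broad domains held 25.9% (22.4 to 29.7%), and of the 739 such Sall4 peaks 27.9% (24.7 to 31.3%), with 19.4% of the H3K4me3 sequence. Of the 1126 H3K27ac domains that overlapped H3K4me3, 28.6% (26.0 to 31.3%) touched a broad domain. In sequence outside every H3K4me3 domain the rates were 3.46 Cdx4 and 6.74 Sall4 peak centres per Mb, and 2.67 H3K27ac middles per Mb.

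The widest of the broad domains held the most peaks for their length. In domains over 1500 and up to 2000 bp, over 2000 and up to 2500 bp and over 2500 bp, Sall4 centres numbered 53.6 (43.7 to 65.2), 62.3 (44.7 to 84.5) and 148.6 (112 to 193) per Mb. Cdx4 centres numbered 38.2 (29.9 to 48.2), 51.7 (35.8 to 72.2) and 99.97 (70.4 to 138) per Mb over the same steps. The intervals of the first 2 width groups overlapped for both factors, and the Sall4 interval beyond 2500 bp lay above both. The Cdx4 interval beyond 2500 bp lay above the first and overlapped the second. For H3K27ac the 3 values were 104.6 (90.5 to 120), 94.2 (72.2 to 121) and 129.7 (95.6 to 172) middles per Mb, whose intervals overlapped one another. The share of domains with a Sall4 peak was 9.29%, 13.3% and 34.6% over these steps, with a Cdx4 peak 6.59%, 9.52% and 22.0%, and with an H3K27ac domain 17.5%, 18.0% and 29.9%. In the next narrower domains, over 900 and up to 1500 bp, Cdx4 centres numbered 36.1 per Mb (31.4 to 41.4) and Sall4 centres 42.3 (37.1 to 48.0). Both intervals overlapped those of domains over 1500 and up to 2000 bp, which held 1077 of the 1498 broad domains. The H3K27ac rate there, 69.1 per Mb (62.4 to 76.3), had an interval below that of domains over 1500 and up to 2000 bp. Below 900 bp the rates did not go up with width. Sall4 centres numbered 44.8 per Mb (33.3 to 59.1) up to 300 bp, 37.7 (28.6 to 48.7) over 300 and up to 500 bp and 29.5 (24.2 to 35.5) over 500 and up to 900 bp, with overlapping intervals.

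**Figure D2:**
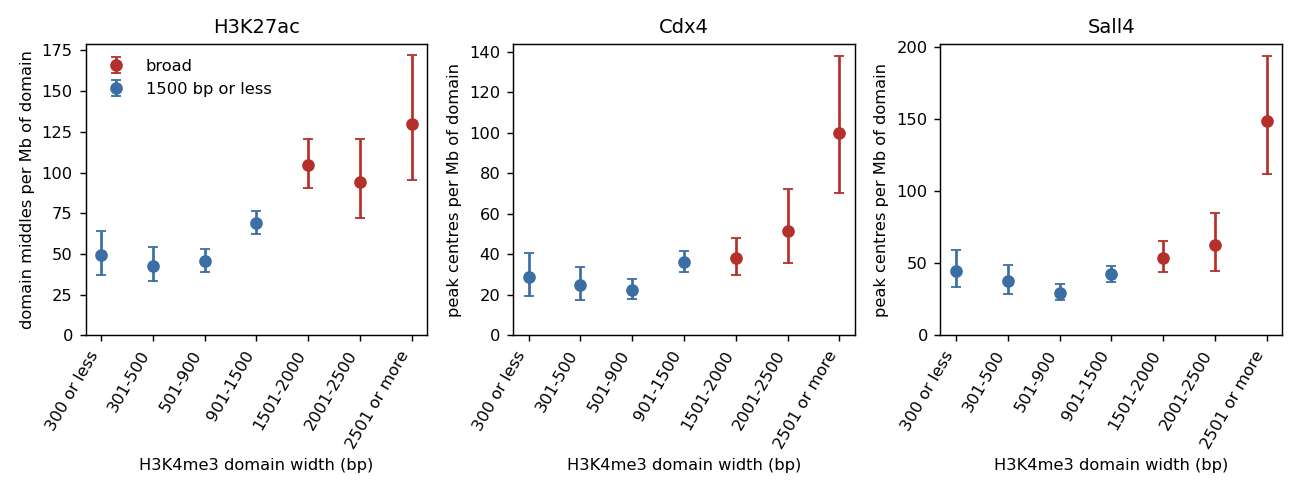
H3K27ac domain middles, Cdx4 peak centres and Sall4 peak centres per Mb of H3K4me3 domain (vertical axes) by domain width in bp (horizontal axes), broad domains in red and narrower ones in blue, with exact Poisson 95% intervals for counting error. The rates of both factors are highest beyond 2500 bp, at 99.97 per Mb for Cdx4 and 148.6 per Mb for Sall4.

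Overlaps were also set beside the authors' H3K4me3 score. Broad domains were divided into 4 groups of near equal size by score. From the lowest to the highest group the share with an H3K27ac domain was 19.5%, 20.1%, 16.3% and 18.7%, with overlapping intervals. The share with a Sall4 peak was 12.0% (8.89 to 15.7%), 8.82% (6.15 to 12.2%), 10.4% (7.52 to 14.0%) and 17.6% (13.9 to 21.8%), where the interval of the top group lay above that of the second. Sall4 centres numbered 90.0 per Mb (70.6 to 113) in the top group and 48.8 (33.8 to 68.1) in the second. The share with a Cdx4 peak was 8.27%, 7.22%, 6.95% and 11.5%, with overlapping intervals. The top group was also the widest, with a median width of 2042 bp against 1799 bp in each of the others. The whole H3K4me3 list was also divided into 4 groups by score, with broad and other domains set side by side within each. In the highest-scoring 25%, which held 1201 broad and 3645 other domains, broad domains exceeded the others 1.77-fold for H3K27ac (1.47 to 2.13), 1.76-fold for Sall4 (1.41 to 2.20) and 1.44-fold for Cdx4 (1.11 to 1.86) per Mb. In the lowest-scoring group, with 68 broad domains, the ratios were 3.93 (2.27 to 6.52) for H3K27ac, 3.71 (1.90 to 6.75) for Sall4 and 3.41 (1.59 to 6.66) for Cdx4. They rested on only 20 H3K27ac middles, 14 Sall4 centres and 11 Cdx4 centres in broad domains. In the groups between them the intervals of both factors included 1. Broad domains held 3 Sall4 and 3 Cdx4 centres in the lower of these groups, and 17 and 15 in the upper. The next group up, with 53 broad domains, gave 1.34 (0.53 to 2.85) for H3K27ac, 0.742 (0.150 to 2.23) for Sall4 and 1.29 (0.257 to 3.96) for Cdx4. The one above it, with 176 broad domains, gave 1.85 (1.29 to 2.58), 1.31 (0.745 to 2.17) and 1.41 (0.767 to 2.42) for the same targets.

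Most broad domains overlapped nothing else that was mapped. None of H3K27ac, Cdx4 and Sall4 was called in 1059 of them (70.7%, 68.3 to 73.0%), against 16507 of the others (92.2%, 91.8 to 92.6%) and 90.5% of all H3K4me3 domains. H3K27ac alone was found in 189 broad domains (12.6%) and 597 others (3.33%), with 4.05% over all. Sall4 alone was found in 98 broad domains (6.54%) and 356 others (1.99%), with 2.34% over all. Cdx4 alone was found in 37 broad domains (2.47%) and 182 others (1.02%), with 1.13% over all. Both factors occurred together in 60 broad domains (4.01%, 3.07 to 5.13%) and 123 others (0.687%, 0.571 to 0.819%), with 0.943% over all. All 3 were present in 35 broad domains (2.34%, 1.63 to 3.24%) and 59 others (0.330%, 0.251 to 0.425%), with 0.485% over all. At least 2 peaks of the same factor lay in 20 broad domains for Sall4 (1.34%, with 0.196% over all) and 17 for Cdx4 (1.13%, with 0.144% over all), against 18 and 11 of the other domains. These shares are per domain, and a wider domain offers a longer target. In domains over 900 and up to 1500 bp, none of the 3 was called in 86.0%. H3K27ac alone was found in 5.88% of them, Sall4 alone in 3.13% and Cdx4 alone in 1.66%. Both factors occurred in 1.43%, all 3 in 0.714%, at least 2 Sall4 peaks in 0.336% and at least 2 Cdx4 peaks in 0.210%.

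**Figure D3:**
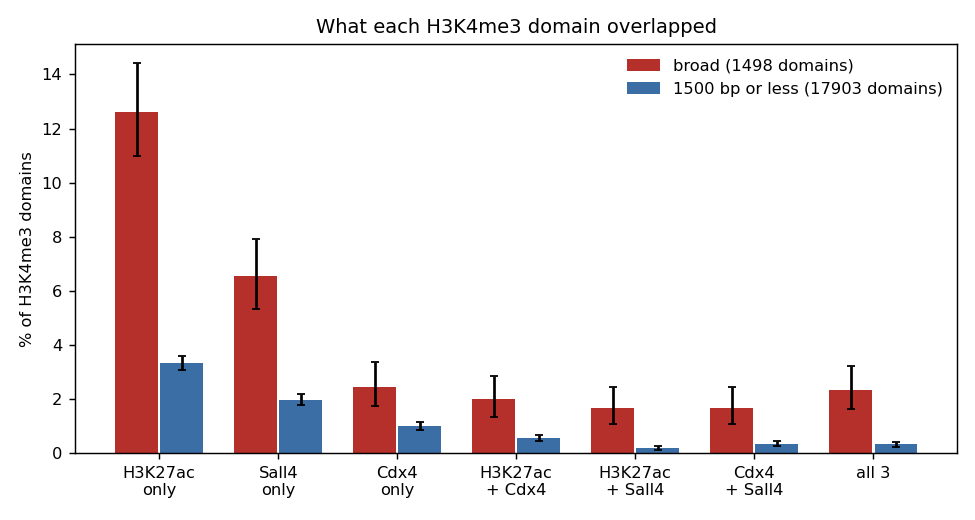
Share of H3K4me3 domains (vertical axis, %) by the combination of H3K27ac domains, Cdx4 peaks and Sall4 peaks they overlapped, for broad domains in red and those of 1500 bp or less in blue, with exact binomial 95% intervals. The broad bar is the higher one in all 7 combinations, and H3K27ac alone is the most frequent at 12.6% of broad domains. Shares are per domain and are not adjusted for domain width.

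Within broad domains the factors followed acetylation, Cdx4 more than Sall4. A Cdx4 peak lay in 23.3% of the 279 broad domains with H3K27ac (18.5 to 28.7%) and in 5.09% of the 1219 without (3.92 to 6.47%). A Sall4 peak lay in 21.5% (16.8 to 26.8%) of those with and 10.1% (8.46 to 11.9%) of those without. Median widths of the 2 sets were similar, 1899 and 1799 bp. Base by base, the acetylated part of broad domains held 323.7 Cdx4 centres per Mb (252 to 409) and the rest of their sequence 27.1 (21.2 to 34.1), a ratio of 11.9 (8.48 to 16.8). For Sall4 the rates were 221.9 (164 to 294) and 55.3 (46.8 to 64.9) per Mb, a ratio of 4.01 (2.84 to 5.59). Both ratios were smaller than in the narrower H3K4me3 domains, where they were 25.4 (20.4 to 31.4) for Cdx4 and 7.36 (5.67 to 9.45) for Sall4, with no overlap of the intervals for either factor.

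The order of the Cdx4 rates was reversed in acetylated bases. There, broad domains held 323.7 Cdx4 centres per Mb and the other domains 463.9 (391 to 546), a ratio of 0.698 (0.517 to 0.934). In bases without H3K27ac the ratio of broad to other domains was 1.48 (1.12 to 1.94). For Sall4 the ratio was 0.925 (0.630 to 1.35) in acetylated bases, an interval that includes 1, and 1.70 (1.39 to 2.05) in the remaining bases. H3K27ac bases in no H3K4me3 domain held more of both factors than those in broad domains, 774.9 Cdx4 and 617.2 Sall4 centres per Mb. Counted per H3K27ac domain, the Cdx4 shares were close. A Cdx4 peak lay in 21.1% (16.8 to 26.0%) of the H3K27ac domains in broad H3K4me3, which averaged 744 bp, and in 20.6% (17.9 to 23.6%) of those in narrower H3K4me3, which averaged 504 bp. Outside H3K4me3 the share was 34.0% (32.4 to 35.6%), with a mean width of 441 bp. The corresponding Sall4 shares were 17.1% (13.1 to 21.6%), 12.1% (9.89 to 14.5%) and 27.1% (25.7 to 28.6%).

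**Figure D4:**
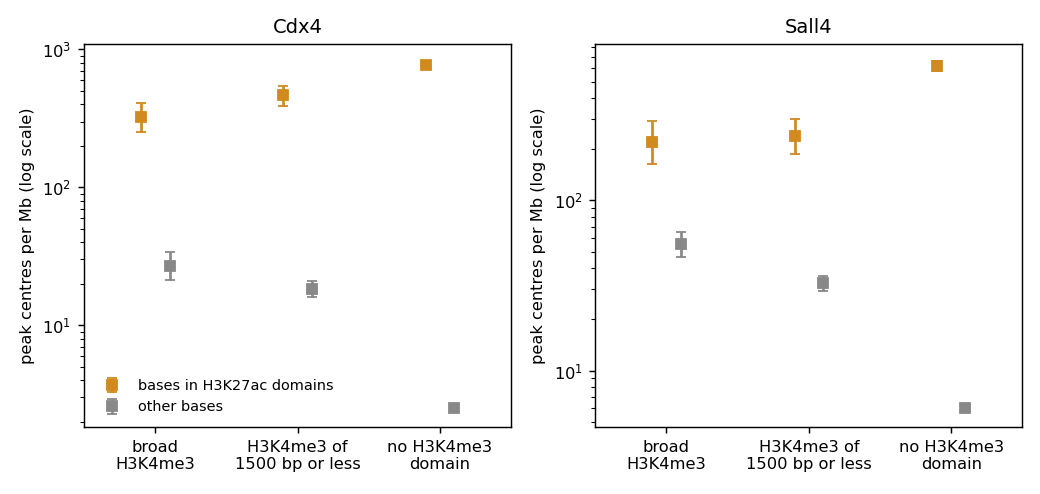
Cdx4 and Sall4 peak centres per Mb (vertical axes, log scale) in bases of broad H3K4me3 domains, of H3K4me3 domains up to 1500 bp and of no H3K4me3 domain, split into bases in H3K27ac domains (orange) and other bases (grey), with exact Poisson 95% intervals. Acetylated bases carry the higher rate in all 3 settings, and their Cdx4 rate is lowest in broad domains at 323.7 per Mb, where other bases carry 27.1.

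The peaks inside broad domains were of middling score within their lists. The median Cdx4 peak there stood at the 49.3rd percentile of the Cdx4 list, against 44.1 in narrower H3K4me3 domains and 50.5 outside H3K4me3. Of Cdx4 peaks in broad domains 19.7% (13.6 to 27.1%) were in the highest-scoring 25% of their list, against 14.8% (11.5 to 18.5%) in narrower domains and 25.8% (24.6 to 27.1%) outside. For Sall4 these shares were 18.4% (13.4 to 24.4%), 16.1% (13.1 to 19.5%) and 25.8% (24.9 to 26.7%). Scores of Cdx4 peaks in broad domains ran from 32 to 504, and of Sall4 peaks from 44 to 279. Peaks of the 2 factors coincided in part. Of the 147 Cdx4 peaks in broad domains, 61 overlapped a Sall4 peak (41.5%, 33.4 to 49.9%), against 29.3% (24.97 to 33.9%) in narrower domains and 47.1% (45.7 to 48.6%) outside H3K4me3. Of the 206 Sall4 peaks, 60 overlapped a Cdx4 peak (29.1%, 23.0 to 35.8%), against 22.5% and 23.7%.

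Both factors were denser in the interior of broad domains than at their ends. The narrower domains set against them changed with depth. The outer 250 bp of each end took in the whole of any domain of up to 500 bp. Only domains over 1000 bp reached depths over 500 bp. In the outer 250 bp of each end, broad domains held 28.0 Cdx4 centres per Mb (17.4 to 42.9) and the others 29.5 (25.8 to 33.6), a ratio of 0.95 (0.577 to 1.49). Sall4 centres there numbered 41.4 (28.1 to 58.7) and 37.9 (33.7 to 42.6) per Mb, a ratio of 1.09 (0.728 to 1.58). In the next 250 bp inward the ratios were 1.55 (1.02 to 2.30) for Cdx4 and 1.94 (1.39 to 2.69) for Sall4, and at depths over 500 and up to 750 bp they were 1.70 (1.05 to 2.78) and 1.82 (1.19 to 2.81). Beyond 750 bp from either end, a depth only broad domains have, Cdx4 centres reached 67.8 (49.5 to 90.7) and Sall4 centres 84.4 (63.7 to 110) per Mb. Deeper than 500 bp, broad domains held 2.22 times (1.37 to 3.77) the Cdx4 rate and 1.92 times (1.28 to 2.95) the Sall4 rate of their own outer 250 bp. H3K27ac cover likewise went up inward in broad domains, at 4.00%, 6.16%, 8.67% and 11.3% of bases over the same 4 depths. In the others it was 2.13%, 3.05% and 4.36% over the first 3.

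Broad domains also stood in richer surroundings. Each base outside H3K4me3 was allotted to its nearest H3K4me3 domain. Over 2 and up to 5 kb from the edge, bases around broad domains held 21.1 Sall4 centres per Mb (17.8 to 24.8) and those around other domains 8.85 (8.17 to 9.57), a ratio of 2.38 (1.98 to 2.86). Cdx4 centres numbered 10.5 (8.20 to 13.2) and 4.93 (4.42 to 5.48) per Mb, a ratio of 2.13 (1.63 to 2.75). Over 5 and up to 10 kb the ratios were 2.24 (1.87 to 2.67) for Sall4 and 2.02 (1.55 to 2.59) for Cdx4. H3K27ac covered 0.622% of bases at that distance from broad domains and 0.164% from the others. Nearer the domains the ratios were less even. Within 250 bp outside the edge they were 1.32 (0.907 to 1.87) for Sall4 and 1.23 (0.745 to 1.94) for Cdx4, with intervals that include 1. Over 250 and up to 500 bp, over 500 and up to 1000 bp and over 1 and up to 2 kb, the Sall4 ratio was 1.95 (1.02 to 3.47), 2.57 (1.39 to 4.48) and 2.04 (1.48 to 2.77). The Cdx4 ratio over these steps was 3.57 (1.56 to 7.51), 1.68 (0.64 to 3.77) and 1.30 (0.785 to 2.05), and the intervals of the last 2 include 1.

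**Figure D5:**
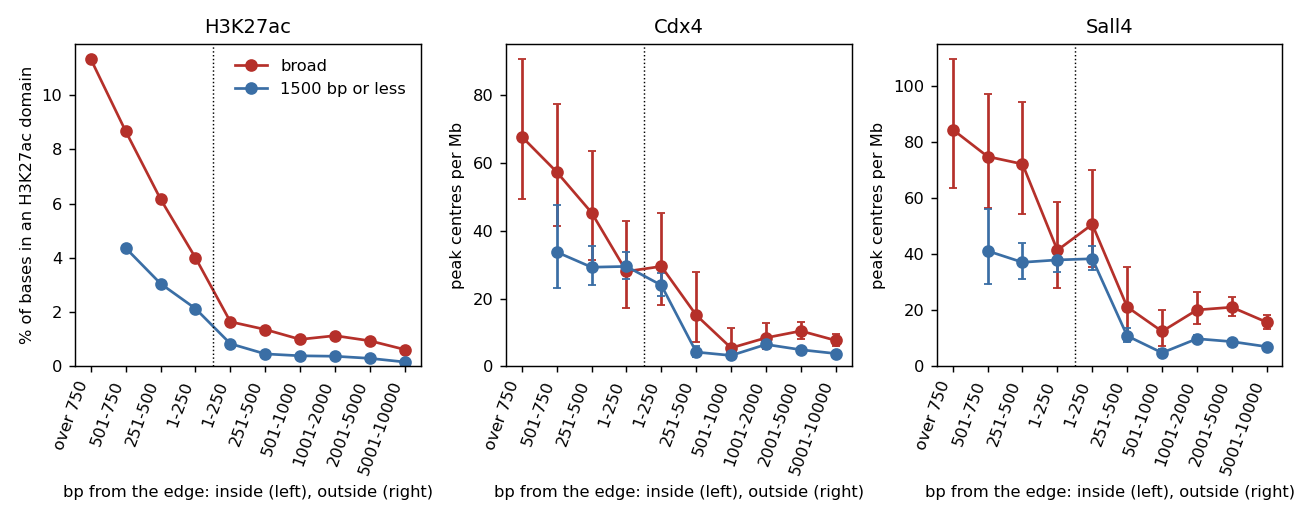
Share of bases in an H3K27ac domain, and Cdx4 and Sall4 peak centres per Mb (vertical axes), by distance in bp from the nearest H3K4me3 domain edge, inside the domain to the left of the dotted line and outside to the right, for broad domains in red and others in blue; bars are exact Poisson 95% intervals. The intervals of the 2 classes overlap in the outer 250 bp for both factors, which is the whole of any domain up to 500 bp. Farther in, broad domains have the higher rates, with overlapping intervals for Cdx4 and separate ones for Sall4. Beyond 2 kb outside, broad domains are higher for both factors.

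Both factors were denser in the short gaps that part neighbouring H3K4me3 domains than in the domains. Another H3K4me3 domain lay within 500 bp of 250 broad domains (16.7%, 14.8 to 18.7%), against 5460 of the others (30.5%, 29.8 to 31.2%). The share was 17.1% (16.0 to 18.2%) for domains over 900 and up to 1500 bp, close to that of broad domains. In all, 258 such gaps touched a broad domain. The median gap was 201 bp, and no gap was shorter than 200 bp. In gaps next to a broad domain there were 264.4 Cdx4 centres per Mb (157 to 418, from 18 peaks) and in gaps between narrower domains 88.2 (68.1 to 112), a ratio of 3.00 (1.67 to 5.12). Sall4 centres numbered 323.1 (202 to 489, from 22 peaks) and 134.3 (109 to 164) per Mb, a ratio of 2.41 (1.44 to 3.85). The rate in gaps next to a broad domain exceeded that in all broad domains 5.38-fold for Cdx4 (3.10 to 8.81) and 4.77-fold for Sall4 (2.92 to 7.43). Most broad domains had no such gap beside them, and rates in the domains beside the gaps are not given here. How much of the excess belongs to these places and how much to the gaps was not tested. Acetylation covered less of the short gaps of both kinds than of all H3K4me3 domains of the same class, again not only those beside the gaps. H3K27ac covered 0.444% of the bases of gaps next to a broad domain, against 7.43% inside all broad domains, and overlapped 2 of the 258 gaps. In gaps between narrower domains it covered 0.304% of the bases, against 2.58% inside all domains of 1500 bp or less, and overlapped 22 of 2735 gaps. Over 5 and up to 10 kb outside, H3K27ac cover was 0.622% around broad domains and 0.164% around the others.

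The widest broad domains showed how unlike one another the members were. The tenth place by width, 3399 bp, was shared by 4 domains, of which the one with the highest score was taken. Of the 10 widest, 4 overlapped an H3K27ac domain, 3 a Cdx4 peak and 3 a Sall4 peak, and 4 overlapped none of them. With all 4 domains of 3399 bp, the 13 widest held 6 with H3K27ac, 4 with Cdx4, 3 with Sall4 and 5 with none. The widest, 5399 bp at chr7:7067300-7072698, had a score of 1167 and 1 Cdx4 peak (score 76) near its right end. The next, 5299 bp at chr25:36203700-36208998 (score 3097), was acetylated over 45.3% of its width and held 1 Sall4 peak (score 65). A domain of 4199 bp at chr13:44847800-44851998 held 2 H3K27ac domains of 200 bp each and no peak. One of 4099 bp at chr6:56209300-56213398 held a Sall4 peak (score 82) 226 bp from its middle and no acetylation. The domain of 3999 bp at chr16:14763900-14767898 was acetylated over 65.0% of its width, and its Cdx4 peak (score 137) and 1 of its 2 Sall4 peaks (scores 75 and 86) overlapped.

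Among the rest of the 10 widest, the domains at chr13:9002500-9006398 (3899 bp, score 3163), chr23:24594800-24598498 (3699 bp, score 2081), chr21:5896200-5899698 (3499 bp, score 2222) and chr19:24805100-24808598 (3499 bp, score 384) overlapped nothing. The first of these ranked at place 3 of all broad domains by score. The tenth, 3399 bp at chr9:50029100-50032498, had the highest score of the whole list, 3318. It was acetylated over 91.1% of its width, the most H3K27ac bases of any broad domain (3098 bp), and held a Cdx4 peak with a score of 124.

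The other broad domains with the most acetylated bases differed in score. A domain of 2999 bp at chr21:39196100-39199098 (score 2959) lay wholly within an H3K27ac domain of 4799 bp and held no peak of either factor. At chr14:40709100-40711798, an H3K4me3 domain of 2699 bp with a score of only 189 shared both ends with an H3K27ac domain whose score was 1853. At chr23:35117600-35120598, a domain of 2999 bp was acetylated over 86.6% and held a Cdx4 peak (score 226) and a Sall4 peak (score 87) at its left end. The fifth was the chromosome 16 domain that starts at 14763900 already described.

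Most broad domains that held a peak of either factor held only 1. No peak lay in 1248 broad domains, 1 in 175, 2 in 59, 3 in 7, 4 in 6 and 5 in 3. Those with 3 or more peaks made up 1.07% of broad domains (0.612 to 1.73%) and held 17.0% of the peaks, against 0.067% of the other domains (0.0346 to 0.117%) and 0.144% of all H3K4me3 domains. In domains over 900 and up to 1500 bp the share was 0.252% (0.130 to 0.440%). These shares are per domain, and a wider domain offers a longer target. The 3 with 5 peaks were at chr14:34200000-34202898 (3 Cdx4 and 2 Sall4 peaks), chr7:19146500-19149298 (1 and 4) and chr11:28503600-28506198 (2 and 3). The first 2 had no H3K27ac domain, and the chromosome 11 domain had 492 acetylated bp. In the chromosome 7 domain the Sall4 scores were 138, 97, 129 and 78 from left to right, and the Cdx4 score was 60.

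Domains with 4 peaks lay at chr1:20361000-20364198, chr17:8744700-8747798, chr7:7074000-7076898, chr14:800400-802498, chr13:23178200-23180298 and chr10:40105200-40107198. At chromosome 17 a Cdx4 and a Sall4 peak lay together near each end, at -1052 and -1047 bp and at 1070 and 1084 bp from the domain's middle. At chromosome 10 all 4 peaks lay between -91 and 41 bp from the middle, inside 1 H3K27ac domain of 599 bp, with Cdx4 scores of 146 and 72 and Sall4 scores of 182 and 203. The chromosome 14 domain that starts at 800400 held the highest Cdx4 score of the 9 domains with 4 or 5 peaks, 307, inside an H3K27ac domain of 799 bp. The chromosome 13 domain that starts at 23178200 had an H3K4me3 score of only 95, with 3 Cdx4 peaks, 1 Sall4 peak and acetylation over 52.4%. Of the 7 domains with 3 peaks, the widest was the chromosome 16 domain that starts at 14763900. Of the 9 domains with 4 or 5 peaks, 5 were acetylated and 7 had another H3K4me3 domain within 500 bp. Of all 16 with 3 or more peaks, 11 were acetylated and 11 had such a neighbour, against 18.6% and 16.7% of all broad domains. Over all H3K4me3 domains 5.53% were acetylated, and 30.5% of those of 1500 bp or less had such a neighbour. The 16 were chosen by their peaks, all held both factors, and the narrowest was 1999 bp wide. Of the 60 broad domains with peaks of both factors, 35 were acetylated, so acetylation of the 16 is not read as a separate result.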

How the data were processed

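Binding sites and histone marks were measured by ChIP-seq in bud-stage zebrafish embryos, with 1 library per target. Extracts were crosslinked in 1.1% formaldehyde for 15 min, per the labels' protocols. The authors deposited 1 list of intervals per target, each interval with a score of undefined meaning. That deposited score served only to rank intervals inside 1 list. The names of the deposited Cdx4 and Sall4 peaks point to the peak caller GPS. CASAVA 1.4 and Bowtie 0.12.7 are listed, without roles, in the submitters' processing notes. Thresholds, depth and the use of the inputs are unknown here, so list lengths were not compared.

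Positions count from 1 and include both ends, since 11 H3K4me3 domains start at 1 and 0 start at 0. Overlap meant at least 1 bp. Rates counted peak centres, or H3K27ac domain middles, because an overlap of 1 bp favours short domains. The length of a sequence was the last position reached by any list. Counts of centres, overlaps and the interval for ratios of rates were checked on simulated data with a true ratio of 2. Simulated peaks were placed independently, so clustering of peaks was not covered. The intervals for shares and for single rates were not checked in this way. Calculations used scipy 1.17.1, pandas 2.3.3 and numpy 2.4.6 under Python 3.11.15, and figures matplotlib 3.10.9.

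The members and the comparisons were chosen with earlier results of these data known. The positions named are the 10 widest broad domains, the 10 with the most Cdx4 and Sall4 peaks and the 5 with the most H3K27ac bases, with ties broken by score for width and by width for peaks. Chromosomes and groups named for a high or low value were chosen after their values were seen. The splits by H3K27ac, by distance from the edge and by gap were also chosen then.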

Additional observations from a re-analysis of the deposited data

How the results depend on the processing

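In every alternative tried, 10 for each of the 3 ratios per Mb, broad domains kept the higher rate and the lower bound of the ratio stayed above 1, the lowest bound being 1.09. The ratio ranged from 1.43 to 2.83 for H3K27ac, 1.36 to 2.35 for Cdx4 and 1.49 to 2.33 for Sall4. The split by acetylation was not among these settings. In domains with H3K27ac the ratio was 0.641 (0.481 to 0.849) for Cdx4 and 0.986 (0.705 to 1.37) for Sall4. In domains without it the ratio was 1.54 (1.15 to 2.04) for Cdx4 and 1.69 (1.37 to 2.07) for Sall4. Within some score groups the intervals also included 1, as given above. Shares per domain moved with the width limit. Over 1000 bp, 12.0% of domains overlapped H3K27ac, 5.86% Cdx4 and 7.30% Sall4, and the Sall4 ratio was 1.49. Over 2000 bp, the shares were 21.6%, 13.3% and 19.7%, and the ratios 2.23 for Cdx4 and 2.33 for Sall4. Merging H3K4me3 domains across gaps of up to 500 bp gave 2442 domains over 1500 bp, of which 14.0% overlapped H3K27ac, with an H3K27ac ratio of 1.43. With only the better-scoring part of the other list, split at its median, the shares were 13.5% for H3K27ac, 4.34% for Cdx4 and 6.48% for Sall4, and the H3K27ac ratio was 2.24; the alternative holds fewer intervals by construction. Against domains over 900 and up to 1500 bp the H3K27ac ratio was 1.53. In the central 500 bp of each domain it was 2.83, and the Cdx4 ratio 2.35. The cause of these changes was not tested. Counting overlaps of at least 1 bp in place of centres, keeping assembled chromosomes only, or keeping the upper part of the H3K4me3 list by score moved no value out of its interval. The highest-scoring 25% of the H3K4me3 list was added after the data were seen. Leaving out a replicate was not possible with 1 library per target. No paired analysis was possible because no target had a second library. Unknown depth limits every absence of a peak or domain.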
